A study of Homo sapiens with 12 samples.

Results

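The zinc finger genes of chromosome 19 were described in 3 cultured prostate lines. Members were the rows of the deposited expression table that were annotated as protein coding, carried a gene name beginning with ZNF and lay on chromosome 19. There were 249 such genes among 58302 rows, out of 514 protein-coding ZNF genes genome-wide and 1467 protein-coding genes on chromosome 19.

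Most genes of this kind encode proteins with a row of C2H2 zinc fingers, which read DNA sequence, often joined to a KRAB domain, which calls in the co-repressor TRIM28 and with it the histone methyltransferase SETDB1. The best known targets of KRAB zinc finger proteins are retroelements and other repeats, which they help to silence. The genes arose largely by tandem duplication, so that they stand in clusters of close relatives along the chromosome.

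The study set a benign prostate line beside PCa (prostate cancer) lines by RNA-sequencing of total RNA. Its 12 libraries comprised 4 of BPH-1, a line from benign prostatic tissue, 4 of DU145 and 4 of PC3, the last being PCa lines. All 3 lines were labelled with genotype WT and were grown in Dulbecco's modified Eagle's medium with 10% fetal bovine serum, penicillin and streptomycin, with no treatment. Nothing in the labels says that the libraries of a line came from separate cultures, so each p-value measures the spread between these libraries, which may be technical, and a line stands for itself alone.

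Levels are given as FPKM (fragments mapped to a gene, scaled by its exon length and by the depth of the library), the unit of the table. Whole reads could be recovered from the steps between low values, and the recovered depth was 12950664 to 16309560 reads per library. A member at or under 3 reads in a library is called at the floor there, and such intervals and floors cover counting error only. Fold values given as at least a number set the mean FPKM of the line that transcribed a member against the floor of the other line. That floor is the FPKM of 3 reads at the line's median depth, so single libraries can lie closer together. The epithelial keratins KRT8 and KRT18 were at 14.7 FPKM or more in all 12 libraries, whereas KRT5, EPCAM and CDH1 were high in BPH-1 and CDH1 was at 0.0851 to 0.297 FPKM in DU145. The prostate marker KLK3 was at 0 in all libraries. Of the 4 markers of other cell types, the leukocyte gene PTPRC was at 1.15 to 1.54 FPKM in BPH-1, 0 to 1.35 in DU145 and 0 in PC3, the endothelial gene PECAM1 was highest in PC3 at 1.19 to 2.28, COL1A1 lay between 0.354 and 3.84 in all libraries, and COL1A2 was at 0.135 or less. The part of these cells or genes in the results below was not tested.

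The libraries also stood apart by GC content, which bears on these genes because their median GC content was 44.1% against 49.7% for protein-coding genes. In each library the median level of low-GC genes was set against that of high-GC genes on the log2 scale, relative to the mean over the libraries. This GC balance was 1.34 to 1.52 in BPH-1, -1.62 to -0.0269 in PC3, 0.417 and 0.0641 in DU145 replicates 2 and 4, and -1.51 and -2.29 in DU145 replicates 1 and 3. Within DU145, 142 of the 215 members above the floor were higher in both of replicates 2 and 4 than in both of replicates 1 and 3, and 22 were lower. For many results on DU145, values without replicates 1 and 3 or after a correction for GC content are therefore given beside them.

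**Figure D1:**
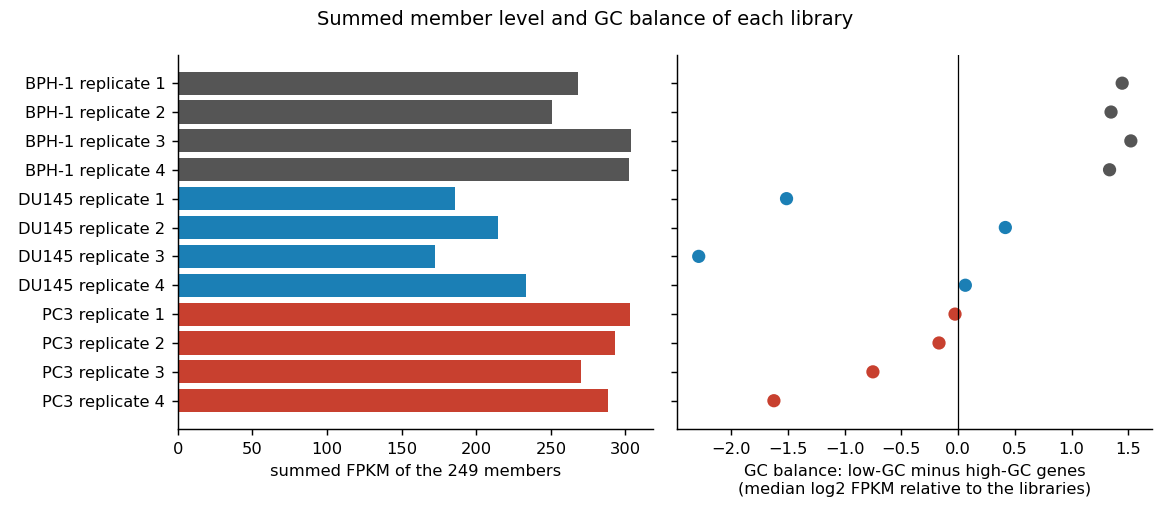
Summed FPKM of the 249 members (left, bars from 0) and GC balance (right, log2 units, 1 point per library) in the 12 libraries, coloured by line. The summed level was 172 to 233 in DU145 and 251 or more in every BPH-1 and PC3 library, and the BPH-1 libraries had the highest GC balance.

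Most members were transcribed at low levels. The median of the members' mean FPKM was 0.569 in BPH-1, 0.306 in DU145 and 0.354 in PC3, and 86, 48 and 65 members reached a mean of 1 FPKM. Of the 249 members, 139 were above the floor in all 12 libraries, 18 were at the floor in all 12 and 6 of those were at 0 throughout. In BPH-1, 173 members were above the floor in every library and 64 were at the floor in every library. The corresponding numbers were 187 and 34 in DU145 and 178 and 45 in PC3, and the remaining 12, 28 and 26 members were mixed. In bulk RNA, fewer cells that express a gene and less RNA per cell cannot be told apart.

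Members whose starts lay less than 1000000 bases apart were joined into runs, and 9 runs held at least 5 members. They are numbered from the short-arm end. Clusters 1 to 4 lie at 2.8 to 2.9, 7.1 to 9.8, 11.5 to 12.6 and 19.7 to 24.1 Mb, and clusters 5 to 9 lie on the long arm at 34.7 to 35, 36.2 to 37.8, 43.5 to 45.1, 51.6 to 53.6 and 55.5 to 58.5 Mb (GRCh38). They hold 5, 16, 26, 37, 5, 26, 24, 40 and 59 members in that order, with 11 members outside any cluster.

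As examples of the patterns described below, the 250 bases before the RefSeq start are shown for 7 members (build GRCh38.p14, read 5′ to 3′ on the strand of the gene, with CG dinucleotides in capitals). ZNF790 (chr19:36850793-36851042, minus strand) and ZNF829 (chr19:36916292-36916541, minus strand) of cluster 6 were transcribed in BPH-1 and DU145 and at 0 in PC3. ZNF146 (chr19:36214856-36215105, plus strand) was the member of cluster 6 with the highest level, and its RefSeq start lies 504 bases from the 5′ end given in the table. ZNF320 (chr19:52897695-52897944, minus strand) and ZNF677 (chr19:53254874-53255123, minus strand) of cluster 8, and ZNF671 (chr19:57727625-57727874, minus strand) of cluster 9, were at the floor in BPH-1 and transcribed in PC3. ZNF714 (chr19:21081953-21082202, plus strand) of cluster 4 was lower in both PCa lines.
ZNF790: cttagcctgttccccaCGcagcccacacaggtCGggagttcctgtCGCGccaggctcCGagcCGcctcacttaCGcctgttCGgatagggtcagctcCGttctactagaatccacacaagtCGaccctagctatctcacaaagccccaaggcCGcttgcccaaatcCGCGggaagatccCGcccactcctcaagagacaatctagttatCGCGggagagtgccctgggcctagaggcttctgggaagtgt
ZNF829: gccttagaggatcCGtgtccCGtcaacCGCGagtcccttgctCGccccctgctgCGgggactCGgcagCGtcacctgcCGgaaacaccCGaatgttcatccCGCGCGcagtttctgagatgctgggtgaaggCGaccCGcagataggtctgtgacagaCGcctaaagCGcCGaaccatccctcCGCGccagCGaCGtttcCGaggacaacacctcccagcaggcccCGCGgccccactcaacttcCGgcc
ZNF146: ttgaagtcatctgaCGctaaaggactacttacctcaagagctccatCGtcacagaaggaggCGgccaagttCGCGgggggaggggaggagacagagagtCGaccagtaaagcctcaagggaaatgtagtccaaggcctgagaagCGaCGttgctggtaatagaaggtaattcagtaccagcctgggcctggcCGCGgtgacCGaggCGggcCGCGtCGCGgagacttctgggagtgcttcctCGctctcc
ZNF320: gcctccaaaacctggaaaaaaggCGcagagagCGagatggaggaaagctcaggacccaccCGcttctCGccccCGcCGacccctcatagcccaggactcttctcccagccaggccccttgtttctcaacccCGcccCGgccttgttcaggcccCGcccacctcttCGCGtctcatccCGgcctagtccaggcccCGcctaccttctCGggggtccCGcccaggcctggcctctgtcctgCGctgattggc
ZNF677: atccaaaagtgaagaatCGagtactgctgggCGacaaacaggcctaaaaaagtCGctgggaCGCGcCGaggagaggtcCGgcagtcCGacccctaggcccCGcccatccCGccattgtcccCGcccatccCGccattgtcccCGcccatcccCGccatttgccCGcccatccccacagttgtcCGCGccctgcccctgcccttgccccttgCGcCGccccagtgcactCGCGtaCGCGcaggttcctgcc
ZNF671: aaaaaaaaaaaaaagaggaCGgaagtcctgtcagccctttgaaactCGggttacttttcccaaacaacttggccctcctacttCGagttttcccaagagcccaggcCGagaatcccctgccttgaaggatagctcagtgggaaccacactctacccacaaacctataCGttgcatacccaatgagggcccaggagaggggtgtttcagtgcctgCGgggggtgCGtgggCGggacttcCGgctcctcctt
ZNF714: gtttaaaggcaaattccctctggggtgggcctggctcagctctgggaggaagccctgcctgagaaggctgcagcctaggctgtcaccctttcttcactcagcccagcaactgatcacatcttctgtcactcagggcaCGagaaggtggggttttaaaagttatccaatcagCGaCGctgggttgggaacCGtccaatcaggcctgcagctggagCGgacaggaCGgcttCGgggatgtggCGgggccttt
These windows held 16, 26, 17, 16, 23, 9 and 8 CG dinucleotides in that order, against a median of 16 over the 217 members matched by symbol and 11 over 35116 promoters. No methylation was measured, and the counts describe sequence alone.

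The first comparison asked how the members differed between PC3 and the benign line. The filter on low values (10 or more reads in 4 libraries, counted at the median depth) let 193 members be tested in PC3 against BPH-1. By limma on log2(FPKM + 1), with Benjamini-Hochberg adjustment over the 16410 genes tested, 60 members were higher and 77 lower in PC3, where 27.1% and 40.4% of all genes tested were called, or 67.6% in either direction. The members' share called was thus close to that of all genes, and their median log2 fold change of -0.0949 lay near the -0.126 of all genes. Of the 265 ZNF genes on other chromosomes, 42 were higher and 115 lower among 230 tested, and of the other protein-coding genes of chromosome 19, 338 were higher and 168 lower among 775. A member can pass the filter through the line where it is high, and with at least 10 reads in every library 32 were higher and 47 lower of 131.

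Between DU145 and BPH-1, 30 members were higher and 78 lower in DU145 among 186 tested, against 30.3% and 32.4% of all genes, or 62.7% in either direction. Their median log2 fold change was -0.21, and that of all genes was -0.026. After the correction for GC content the medians were -0.144 for the members and -0.128 for all genes, with 34 members higher and 73 lower. Without DU145 replicates 1 and 3 the members' median was -0.0606, with 44 higher and 57 lower of 200. All genes then had a median of -0.0264, with 5224 higher and 5333 lower of 17860. In PC3 against DU145, 61 members were higher and 28 lower among 193 tested, against 20% and 28.4% of all genes, or 48.3% in either direction, and the median was 0.15, against -0.0548 for all genes. This balance turned when DU145 replicates 1 and 3 were left out, with 36 members higher and 58 lower of 210 and a median of 0.0169. All genes then had 3515 higher and 5527 lower of 17270 and a median of -0.116. Between the 4 libraries of these lines with the closest GC balance, PC3 replicates 1 and 2 and DU145 replicates 2 and 4, 62 members were higher and 47 lower of 207. Of all 16970 genes tested there, 4110 were higher and 5654 lower.

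Past a log2 fold change of 1 on the log2(FPKM + 1) scale, which shrinks the change of low genes, 11 members were higher and 20 lower in PC3 against BPH-1, where 9.41% and 17.6% of all genes were. Against BPH-1, DU145 had 1 higher and 17 lower, and in PC3 against DU145 it was 9 higher and 1 lower, against 11.5% and 17.3%, and 8.21% and 11.1%, of all genes. Members called with no overlap between the libraries of both lines numbered 124, 96 and 72 in the same order, where 62.7%, 57.6% and 44.2% of all genes tested were. Each comparison with BPH-1 uses the same 4 control libraries.

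**Figure D2:**
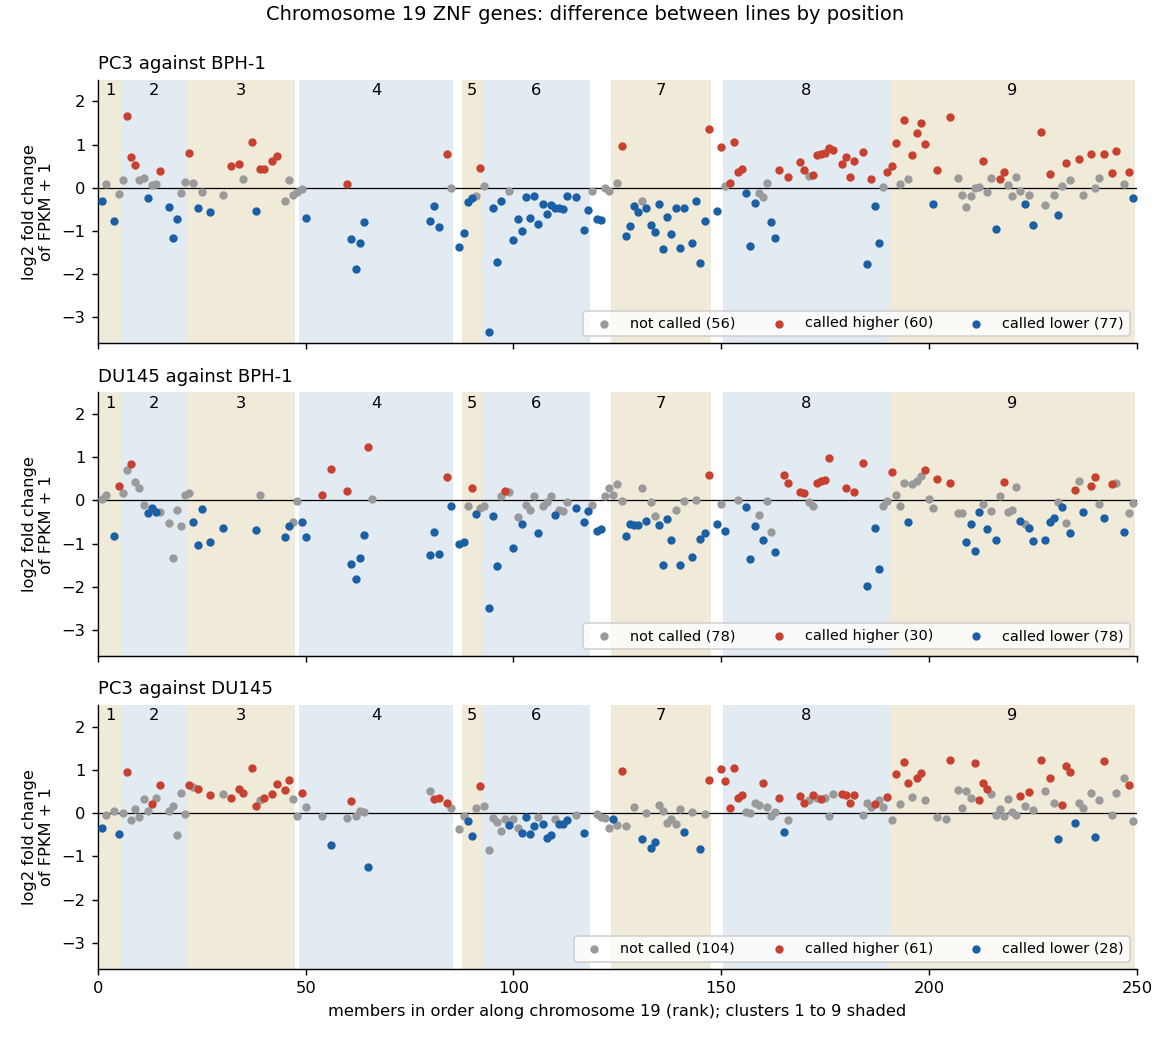
Log2 fold change of FPKM + 1 for each tested member, in order of position along chromosome 19 (rank of the member), for each PCa line against BPH-1 and for PC3 against DU145. Bands mark clusters 1 to 9, red and blue points were called higher and lower at an adjusted p below 0.05, and in the first panel the blue points gather in clusters 6 and 7 and the red ones in clusters 8 and 9.

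Within these totals the clusters differed. Their counts stand beside 27.1% higher and 40.4% lower of all genes tested in PC3 against BPH-1. The shares were 30.3% and 32.4% in DU145 against BPH-1, and 20% and 28.4% in PC3 against DU145. Cluster 6 was low in PC3: 21 of its 23 tested members were lower than in BPH-1 and none was higher by limma, and none was higher at an unadjusted p below 0.05 or by voom on the recovered reads. The count of higher members remained 0 in every alternative run, including the correction for GC content (18 lower) and the filter on every library (7 lower of 9). The summed FPKM of its 26 members was 41.2 ± 6.94 (SD, n = 4) in BPH-1, 11.5 ± 6.70 in DU145 and 3.93 ± 1.92 in PC3. The single gene ZNF146 made up a mean of 26.4, 4.31 and 1.87 FPKM of these sums in the same order. In PC3, 9 of the 26 were at the floor in every library, against 1 in BPH-1 and 0 in DU145.

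ZNF146 was the member of cluster 6 with the highest level. It lies at 36214602 to 36238774 on the plus strand and encodes a protein made almost wholly of zinc fingers, without a KRAB domain. Its FPKM was 27.1, 18.2, 33.3 and 27.1 in BPH-1, 2.93, 7.57, 1.47 and 5.25 in DU145, and 3.63, 2.16, 0.977 and 0.704 in PC3. All BPH-1 libraries were thus above all libraries of both PCa lines, which overlapped each other. The log2 fold change was -3.34 ± 0.311 (SE) in PC3 against BPH-1 (adjusted p = 1.36e-05) and -2.49 ± 0.358 in DU145 against BPH-1 (adjusted p = 0.000211), the latter -1.34 after the correction for GC content. Between PC3 and DU145 the call was missed at -0.85 ± 0.435 (adjusted p = 0.139), and without DU145 replicates 1 and 3 the difference of -1.47 was called, as it was without replicate 3 alone (-1.17).

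ZNF260, 36510695 to 36528660 on the minus strand, had the same order of lines. It was at 3.71, 2.65, 1.34 and 3.82 FPKM in BPH-1, at 0.103 to 0.571 in DU145 and at 0.0612 to 0.25 in PC3, with a log2 fold change of -1.72 ± 0.211 in PC3 against BPH-1 (adjusted p = 7.45e-05). Neither PCa line overlapped BPH-1. For DU145 the log2 fold change against BPH-1 was -1.52, or -0.732 after the correction for GC content.

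Other members of cluster 6 were transcribed in BPH-1 and not detected in PC3. ZNF790 (36817428 to 36850787, minus strand), whose promoter is shown above, was at 0.913, 0.923, 1.02 and 1.1 FPKM in BPH-1 and at 0 in each PC3 library. Against the floor of 3 reads the BPH-1 mean was at least 29.03-fold higher. DU145 lay between them at 0.215, 0.501, 0.324 and 0.463 FPKM, at least 11.03-fold above the PC3 floor, and its fall against BPH-1 of -0.54 on the log2 scale shrank to -0.0798 and lost its call after the correction for GC content. ZNF829 (36888124 to 36916291, minus strand) was at 0.477 to 0.8 FPKM in BPH-1, 0.202 to 0.588 in DU145 and 0 in PC3, at least 25.4-fold higher in BPH-1 than the floor. BPH-1 and DU145 overlapped at ZNF829, with no call between them (log2 fold change -0.216, adjusted p = 0.104), and the value was 0.28 after the correction for GC content. ZNF607 was at 0.801 to 1.11 FPKM in BPH-1 and 0.0216 or less in PC3, and ZNF573 was at 0.313 to 0.531 and 0. Their BPH-1 means were at least 44.3-fold and 17.6-fold above the PC3 floor. The first member of the cluster, ZNF565, did not follow: it was at 0.403 to 0.525 FPKM in BPH-1 and 0.41 to 0.526 in PC3. Among members between them, ZNF567 was at 1.19 to 1.98 FPKM in BPH-1 and 0.0656 to 0.216 in PC3, and ZNF420 at 0.701 to 1.34 and 0.0269 to 0.144, without overlap. ZNF565, ZNF567 and ZNF420 were named after their values were seen.

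The 4 other tested protein-coding genes in the window of cluster 6 gave 0 higher and 3 lower in PC3 against BPH-1. ZFP82, ZFP14 and ZFP30, zinc finger genes there without a ZNF name, were the lower ones, with ZFP82 at 0.631 to 0.892 FPKM in BPH-1 and 0.00796 or less in PC3. In PC3 against DU145, 12 of 23 members of cluster 6 were lower and 0 higher by limma, and 1 was higher at an unadjusted p below 0.05, with 0 by voom. Without DU145 replicates 1 and 3 it was 22 lower and 0 higher of 24, and with the filter on every library 1 lower and 0 higher of 9. The cluster had 1 higher and 10 lower of 24 in DU145 against BPH-1, which became 6 and 6 after the correction for GC content and 5 and 6 of 25 without DU145 replicates 1 and 3. The single member of the cluster that was higher in DU145 was ZNF382, which encodes a KRAB repressor, at 0.071 to 0.383 FPKM against 0.00618 to 0.0187 in BPH-1 (adjusted p = 0.0325), a call that was lost without each BPH-1 library in turn and without DU145 replicate 4.

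**Figure D3:**
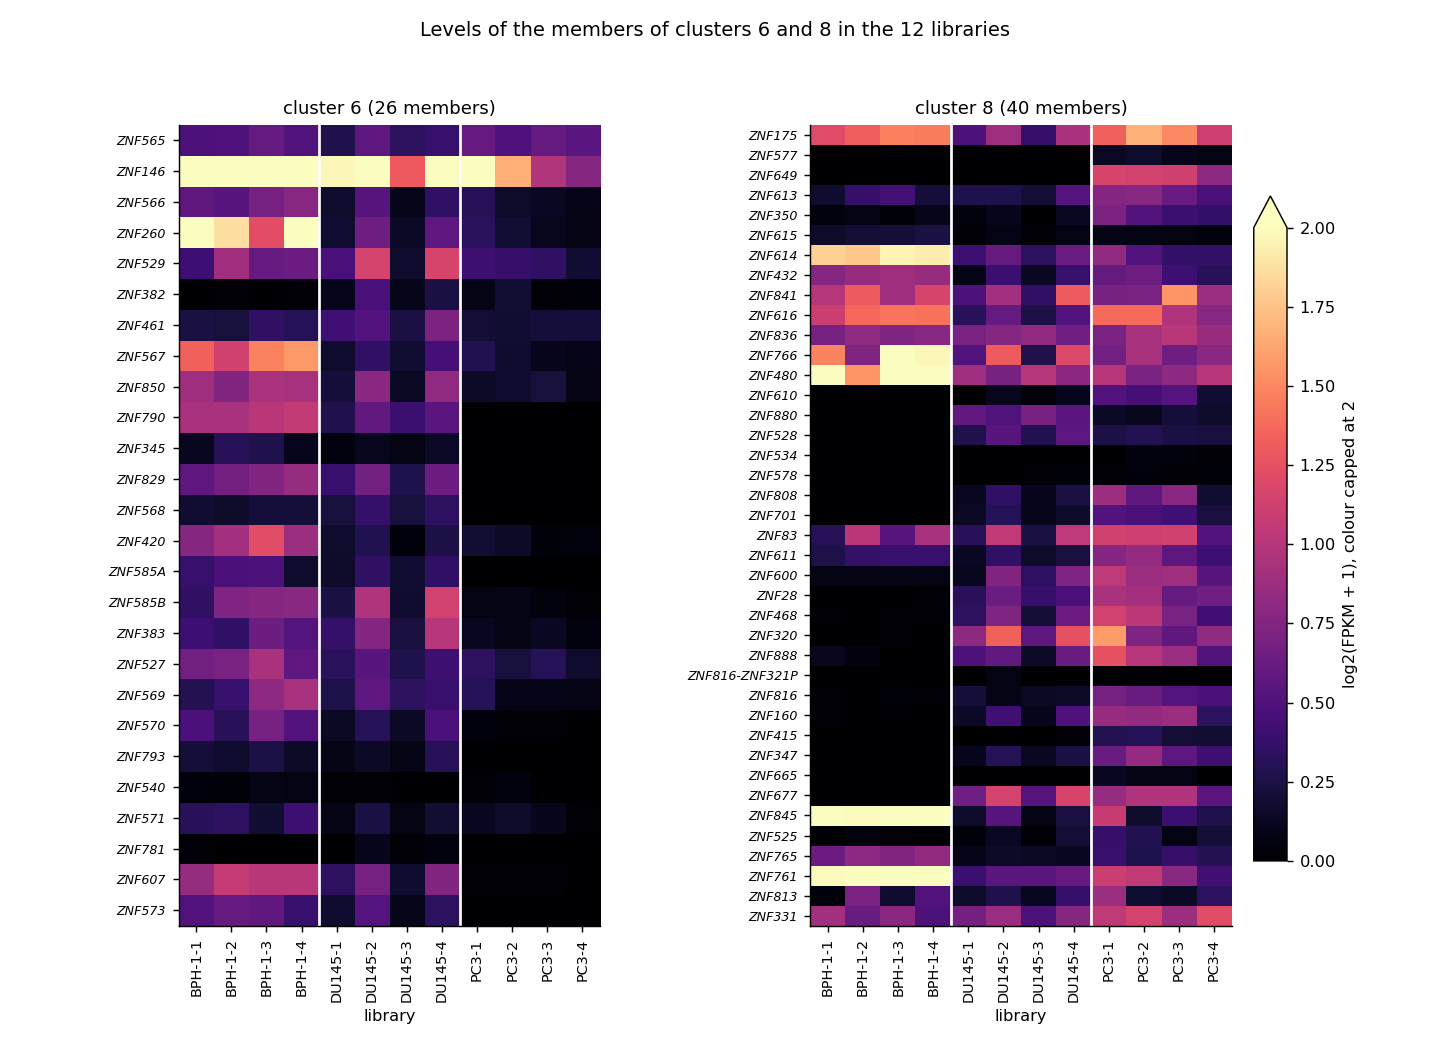
Level of each member of clusters 6 (left) and 8 (right) in the 12 libraries, as log2(FPKM + 1) with the colour capped at 2, members in position order from top to bottom. The PC3 columns of cluster 6 are dark apart from a few members, and in cluster 8 the BPH-1 columns are dark over most of the stretch from ZNF610 to ZNF677.

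Cluster 7 was also lower in PC3 against BPH-1, with 2 members higher and 18 lower of 22 tested, and 1 and 15 after the correction for GC content. ZNF229 (44417519 to 44448578, minus strand) was the clearest: 2.3, 2.12, 2.33 and 2.57 FPKM in BPH-1, 0.339, 1.72, 0.213 and 1.3 in DU145, and 0 in every PC3 library. The BPH-1 level was at least 151-fold above the PC3 floor. All BPH-1 libraries were above all DU145 libraries, with a log2 fold change of -0.90 in DU145 that shrank to -0.41 without DU145 replicates 1 and 3. ZNF404 was at 0.711 to 1.02 FPKM in BPH-1 and 0 in PC3, at least 16.4-fold apart, and at 0.0599 to 0.689 in DU145, where its log2 fold change against BPH-1 of -0.55 turned to 0.0247 after the correction for GC content and lost its call without DU145 replicates 1 and 3 (-0.353). ZNF223 was at 0.535 to 2.31 FPKM in BPH-1, 0.499 to 0.652 in DU145 and 0 in PC3, but 45.4% of its exon bases lie in another protein-coding gene. ZNF224, a KRAB zinc finger protein that binds the tumour protein WT1, was at 2.54, 3.83, 2.01 and 3.39 FPKM in BPH-1 against 0.182 to 0.547 in DU145 and 0.202 to 0.566 in PC3 (log2 fold change -1.43 ± 0.163 in PC3, adjusted p = 4.78e-05). Its neighbour ZNF227 was at 2.8 to 3.73 FPKM in BPH-1 and at 1.11 or less in each library of both PCa lines. ZNF222 was at 1.03 to 1.79 in BPH-1 and 0.614 to 2.25 in DU145, which overlapped, and at 0.235 to 0.406 in PC3, below all of them.

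The 2 members of cluster 7 that were higher in PC3 were ZNF428 and ZNF296, the last in position. ZNF428, with 27.6% of exon bases in SRRM5, was at 3.84 to 4.18 FPKM in BPH-1 and 7.89 to 9.91 in PC3, a log2 fold change of 0.964 that fell to 0.256 and lost its call after the correction for GC content. ZNF296, which encodes a partner of the reprogramming factor KLF4, rose from 0.122 to 0.322 FPKM in BPH-1 to 0.624 to 1.15 in DU145 and 1.54 to 3.88 in PC3. The 3 lines did not overlap at ZNF296 (log2 fold change 1.35 ± 0.186 in PC3 against BPH-1, adjusted p = 0.000154). Cluster 7 had 1 higher and 13 lower of 23 in DU145 against BPH-1, 2 and 9 after the correction for GC content, and 2 and 8 of 24 without DU145 replicates 1 and 3. ZNF155 was lower in PC3 than in DU145 by 0.6 on the log2 scale (0.398 to 0.68 against 0.704 to 2.36 FPKM, adjusted p = 0.0267), and the call was lost without any 1 of 4 libraries, DU145 replicate 2 and PC3 replicates 1, 3 and 4.

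Cluster 8 as a whole leaned in the other direction, which rested mainly on the stretch described below. In PC3 against BPH-1, 21 members were higher and 8 lower of 35 tested, and 24 and 4 after the correction for GC content, and in the filter on every library, which removes members at the floor in BPH-1, 4 were higher and 8 lower of 17. In BPH-1, 18 of the 40 members were at the floor in every library, against 7 in DU145 and 2 in PC3. A single stretch held most of them. From ZNF610 to ZNF677, over 919 kb (52336245 to 53254898), 21 members follow each other, and 16 of them were at the floor in every BPH-1 library. The exceptions were ZNF83, ZNF611, ZNF600, ZNF888 and ZNF160. This stretch was chosen after its values were seen, and no test was made of it as a unit. Close relatives there may share reads, which FPKM values cannot separate.

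The calls in the stretch follow from that choice and are a description, since a member at the floor in BPH-1 could enter only through the other line. In the stretch 15 of 16 members tested were higher in PC3 than in BPH-1 by limma and 0 were lower, with 0 lower also at an unadjusted p below 0.05 and by voom. In DU145 against BPH-1 it was 11 of 13 and 0 lower, with 0 lower at an unadjusted p and by voom, and 1 lower after rescaling each library to the same sum and without DU145 replicate 2. In PC3 against DU145 it was 9 higher and 1 lower of 17, and 4 and 2 without DU145 replicates 1 and 3. With the filter on every library 3 members of the stretch were left in the first comparison, of which 2 were higher. All 8 members of cluster 8 that were lower in PC3 than in BPH-1 lay outside the stretch. In DU145 against BPH-1 the whole cluster had 11 higher and 9 lower of 28. All 11 lay inside the stretch and all 9 outside it. The summed FPKM of its members was 0.639 to 1.43 in BPH-1, 3.36 to 8.65 in DU145 and 5.72 to 13.5 in PC3, sums that also follow from the choice of the stretch. The BPH-1 libraries had the highest GC balance of all, and the median GC content over cluster 8 was 42.6%. ZNF600, above the floor in BPH-1 at 0.0541 to 0.0653 FPKM, was at 0.457 to 1.04 in PC3, without overlap.

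ZNF649 (51889224 to 51905040, minus strand), a KRAB gene that comes before the stretch, was at 1.23, 1.2, 1.18 and 0.738 FPKM in PC3 and at 0 in all 8 other libraries. This is at least 40.5-fold above the BPH-1 floor and at least 41.4-fold above the DU145 floor. ZNF677 (53235381 to 53254898, minus strand), a gene whose promoter is often methylated in tumours, was at 0, 0, 0.00847 and 0 FPKM in BPH-1, 0.584, 1.22, 0.448 and 1.23 in DU145, and 0.797, 0.964, 0.958 and 0.472 in PC3. It was at least 68.3-fold higher in DU145 and at least 62.6-fold higher in PC3 than the BPH-1 floor, and DU145 and PC3 overlapped. ZNF320 (52863790 to 52897693, minus strand) was at 0.0114 FPKM or less in BPH-1, 0.743, 1.53, 0.478 and 1.37 in DU145, and 2, 0.671, 0.493 and 0.765 in PC3. Its means in DU145 and PC3 were at least 58.5-fold and 55.7-fold above the BPH-1 floor, and 23.2% of its exon bases are shared with another gene.

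ZNF468, ZNF28, ZNF347 and ZNF816 were likewise higher in PC3 than in BPH-1. ZNF468 was at 0.0129 FPKM or less in BPH-1 and 0.347 to 1.2 in PC3, with the PC3 mean at least 66.7-fold above the BPH-1 floor. In DU145 it was at 0.149 to 0.661, which overlapped PC3. ZNF28 reached 0.0143 FPKM in BPH-1 and 0.522 to 0.921 in PC3, at least 33.6-fold apart, and was at 0.248 to 0.553 in DU145. ZNF347 was at 0 in BPH-1, 0.0732 to 0.229 in DU145 and 0.33 to 0.787 in PC3, where all 3 lines were apart (adjusted p = 0.00456 in PC3 against DU145). ZNF816 was at 0.0268 or less in BPH-1, 0.0596 to 0.154 in DU145 and 0.397 to 0.611 in PC3. ZNF880 was instead highest in DU145, at 0.421 to 0.617 FPKM against 0 in BPH-1 and 0.0808 to 0.16 in PC3, with the 3 lines apart. ZNF528 was at 0.213 to 0.485 FPKM in DU145, at least 30.7-fold above the BPH-1 floor, and overlapped PC3 at 0.173 to 0.223. Of the members above the floor in BPH-1, ZNF611 was at 0.197 to 0.314 in BPH-1, 0.0939 to 0.28 in DU145 and 0.335 to 0.785 in PC3. It was higher in PC3 than in DU145 (log2 fold change 0.43, adjusted p = 0.00608), though the call was lost without DU145 replicates 1 and 3.

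Beyond the stretch the members were mixed. ZNF845 and ZNF761 had the reverse order, whereas ZNF331, the last member of the cluster, was called higher in PC3 than in BPH-1. ZNF845 (53333749 to 53354869, plus strand) was at 3.08, 2.97, 4.49 and 4.53 FPKM in BPH-1, 0.119, 0.445, 0.0554 and 0.175 in DU145, and 1.12, 0.125, 0.323 and 0.198 in PC3. Neither PCa line overlapped BPH-1, and the log2 fold change was -1.98 ± 0.165 in DU145 (adjusted p = 6.9e-06) and -1.75 ± 0.214 in PC3 (adjusted p = 7.3e-05). ZNF761 was at 2.95 to 3.86 FPKM in BPH-1, 0.323 to 0.531 in DU145 and 0.344 to 1.14 in PC3, and its fall in PC3 of -1.27 on the log2 scale became -0.593 after the correction for GC content. ZNF480, before the stretch, was at 1.94 to 4.04 FPKM in BPH-1 and at 1.01 or less in each PCa library, but after the correction its log2 fold change was 0.013 in DU145 and -0.0842 in PC3, neither of which was called.

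In cluster 3, PC3 stood above DU145. Of 17 members tested, 13 were higher in PC3 and 0 lower by limma, also at an unadjusted p below 0.05, and voom gave 10 and 0. The count of lower members was 0 in every alternative run, and without DU145 replicates 1 and 3 there were 8 higher of 20. A member at the floor in DU145 could enter only through PC3, and with the filter on every library 2 were higher of 7. In DU145 against BPH-1 the cluster had 0 higher by limma, at an unadjusted p and by voom, and 8 lower of 11, with 3 higher and 7 lower of 14 once those replicates were left out. In PC3 against BPH-1 it had 8 higher and 3 lower of 18, and with the filter on every library 2 and 3 of 10. In BPH-1 10 of its 26 members were at the floor, in DU145 7 and in PC3 2.

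ZNF625 (12142090 to 12156729, minus strand) was at 1.12, 1.23, 1.3 and 0.762 FPKM in PC3, at 0 in BPH-1, and at 0, 0, 0 and 0.0216 in DU145. It was at least 19.6-fold above the BPH-1 floor, and 63.7% of its exon bases also belong to the readthrough gene ZNF625-ZNF20. ZNF844 was at 0.384 to 0.554 FPKM in PC3 and at 0.014 or less in both other lines. ZNF20 and ZNF563 were likewise high in PC3, with ZNF563 at 0.211 to 0.579 FPKM there against 0.028 to 0.0975 in DU145 and 0.0146 or less in BPH-1. ZNF20, with 53.3% of its exon bases in ZNF625-ZNF20, was at 0 in DU145 and at 0.0861 to 0.395 in BPH-1, which overlapped PC3 at 0.205 to 0.557. ZNF653, the member of the cluster with the highest level, was at 1.96 to 3.04 FPKM in PC3, above all libraries of DU145 (0.8 to 1.47) and BPH-1 (0.809 to 1.03), and its log2 fold change of 0.816 against BPH-1 was 0.306 after the correction for GC content.

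Cluster 4, on the short arm next to the centromere, held the most members at the floor. In BPH-1 23 of its 37 members were at the floor in every library, in PC3 19 and in DU145 13. In PC3 against BPH-1 it had 2 higher and 8 lower of 12 tested, in DU145 against BPH-1 5 and 10 of 16, and in PC3 against DU145 5 and 2 of 15, or 0 and 5 of 19 without DU145 replicates 1 and 3. ZNF738 (21358930 to 21379302, plus strand) was at 1.13, 1.57, 1.19 and 1.56 FPKM in DU145 and at 0 in each of the other 8 libraries, at least 38.7-fold above the BPH-1 floor and 33.3-fold above the PC3 floor. ZNF486 was at 0.426, 1.26, 0.283 and 0.891 FPKM in DU145 against 0.0448 or less in BPH-1 and 0.0178 or less in PC3. The DU145 mean of ZNF486 was at least 16.0-fold and 13.8-fold above the floors of BPH-1 and PC3. ZNF726 was at 0.431 to 0.478 in DU145 and 0.576 to 0.804 in PC3, at least 20.7-fold and 32.1-fold above the BPH-1 floor.

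ZNF714 (21082159 to 21125270, plus strand) was the converse in cluster 4. It was at 3.43, 3.26, 2.82 and 3.33 FPKM in BPH-1, 0.195, 0.255, 0.172 and 0.166 in DU145, and 0.105, 0.361, 0.0931 and 0.0554 in PC3. The lines of PCa overlapped each other and lay below BPH-1 (log2 fold change -1.87 ± 0.107 in PC3, adjusted p = 6.52e-07, and -1.81 ± 0.108 in DU145, adjusted p = 8.87e-07). Of the pair known to repress young retroelements, ZNF93 was at the floor in BPH-1 and at 0 in PC3, with 0, 0.0627, 0 and 0.0762 FPKM in DU145. ZNF91, which binds SVA elements, was at 0.64 to 0.914 FPKM in BPH-1, 0.0368 to 0.108 in DU145 and 0.105 to 0.535 in PC3. Both PCa lines were called lower than BPH-1 at ZNF91 (log2 fold change -0.737 in DU145, adjusted p = 1.11e-05, and -0.415 in PC3, adjusted p = 0.00621), but in PC3 the value turned to 0.069 after the correction for GC content.

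Cluster 9, the largest, ran higher in PC3 against BPH-1, with 21 of 50 tested higher and 6 lower, and this balance was lost after the correction for GC content (12 higher and 14 lower, median -0.0219). The correction moved all genes as well, to 3708 higher and 7107 lower of 16410 with a median of -0.191, which lay below that of cluster 9. The summed FPKM of cluster 9 was 95.9 ± 8.71 in BPH-1, 90.3 ± 6.28 in DU145 and 154 ± 12.9 in PC3 (SD, n = 4). Its median GC content was 48.3%, the highest of the 9 clusters. The rise was led by ZNF787 (56087366 to 56121280, minus strand), the member with the highest level in PC3, at 33.3, 29, 24.4 and 35.7 FPKM against 8.43, 7.4, 14.1 and 11.7 in BPH-1. Its log2 fold change of 1.49 ± 0.2 (adjusted p = 0.000132) was 0.608 after the correction and was still called, as were ZNF865 (1.58, then 0.701) and, from cluster 2, ZNF358 (1.67, then 0.744). ZNF71 was at 5.68 to 8.13 FPKM in PC3, 1.5 to 2.71 in DU145 and 1.08 to 1.65 in BPH-1, higher in PC3 than in BPH-1 by 1.64 ± 0.14 on the log2 scale (adjusted p = 8e-06). ZNF444 was at 0.822 to 2.14 FPKM in BPH-1, 2.27 to 3.53 in DU145 and 1.89 to 5.51 in PC3, and ZNF414 of cluster 2 at 0.965 to 1.69, 2.09 to 3.98 and 2.37 to 2.94, but neither remained called against BPH-1 after the correction in either PCa line.

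In PC3 against DU145 cluster 9 had 19 higher and 3 lower of 51, 19 and 4 after the correction for GC content, and 13 and 9 without DU145 replicates 1 and 3. ZNF304, whose protein has been described as a recruiter of a silencing complex in colorectal tumours, was at 3.04, 3.11, 3.99 and 3.97 FPKM in BPH-1, 0.766, 1.81, 0.389 and 1.37 in DU145, and 3.99, 4.29, 2.61 and 3.38 in PC3. DU145 lay below both other lines (log2 fold change -1.16 ± 0.224 against BPH-1, adjusted p = 0.00129), which overlapped each other. ZNF587, with 33.3% of its exon bases in ZNF814, was higher in PC3 at 5.32 to 6.55 FPKM than in DU145 at 1.06 to 3.42, by 1.09 on the log2 scale and by 0.725 without DU145 replicates 1 and 3. ZNF8 was at 3.77, 4.33, 4.2 and 4.5 in BPH-1, 3.15, 2.72, 2.36 and 3.47 in DU145, and 6.51, 7.5, 9.35 and 8.91 in PC3, with the 3 lines apart. ZNF583 was at 0.277 to 0.317 FPKM in BPH-1 and 0 in PC3, at least 15.5-fold apart.

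Genes of cluster 9 whose promoters are often methylated in tumours differed among themselves. ZNF671 (57719751 to 57727624, minus strand) was at 0.971, 1.73, 0.996 and 2.47 FPKM in PC3, 0.0231 to 0.0952 in DU145 and 0.0203 or less in BPH-1, at least 51.2-fold above the BPH-1 floor. ZNF154 was at 0 in BPH-1 and DU145 and at 0, 0.0776, 0.0548 and 0 in PC3. ZNF132 was at 0.0492 to 0.175 FPKM in BPH-1, 0 in DU145 and 0.0219 or less in PC3, and it was tested in no comparison, as was ZNF154. ZNF177 of cluster 2, another such gene, ranged from 0 to 0.638 FPKM within PC3 alone, and 90.8% of its exon bases lie in the readthrough gene ZNF559-ZNF177. ZNF350 of cluster 8, whose protein partners BRCA1, was at 0.29 to 0.648 FPKM in PC3 and at 0.0932 or less in both other lines (log2 fold change 0.44 against BPH-1, adjusted p = 0.000521).

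ZNF274, which brings SETDB1 to the zinc finger genes themselves, was at 1.33, 1.66, 1.62 and 1.62 FPKM in BPH-1, 3.01, 2.71, 2.69 and 2.52 in DU145, and 1.3, 1.41, 1.67 and 1.86 in PC3. DU145 was above both other lines without overlap, by 0.547 ± 0.131 on the log2 scale against BPH-1 (adjusted p = 0.0047), a value of 0.0551 with no call after the correction for GC content. ZNF331, an imprinted gene at the end of cluster 8, was at 0.403 to 0.879 FPKM in BPH-1, 0.4 to 0.82 in DU145 and 0.837 to 1.32 in PC3, and its call against BPH-1 (log2 fold change 0.37, adjusted p = 0.0165) was lost without BPH-1 replicate 4, at 0.295. ZNF599 of cluster 5 was at 0.278 to 0.545 FPKM in DU145, above BPH-1 at 0.0923 to 0.272, and at 0 in PC3, at least 16.9-fold below DU145. ZNF792, the highest member of cluster 5, was at 1.24 to 1.38 FPKM in PC3 against 0.522 to 0.933 in BPH-1, and lost that call after the correction (0.218). ZNF77 led cluster 1 at 2.48 to 2.83 FPKM in DU145 and 1.3 to 2.11 in both other lines, and the call against BPH-1 (adjusted p = 0.0465) was lost without any 1 library.

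**Figure D4:**
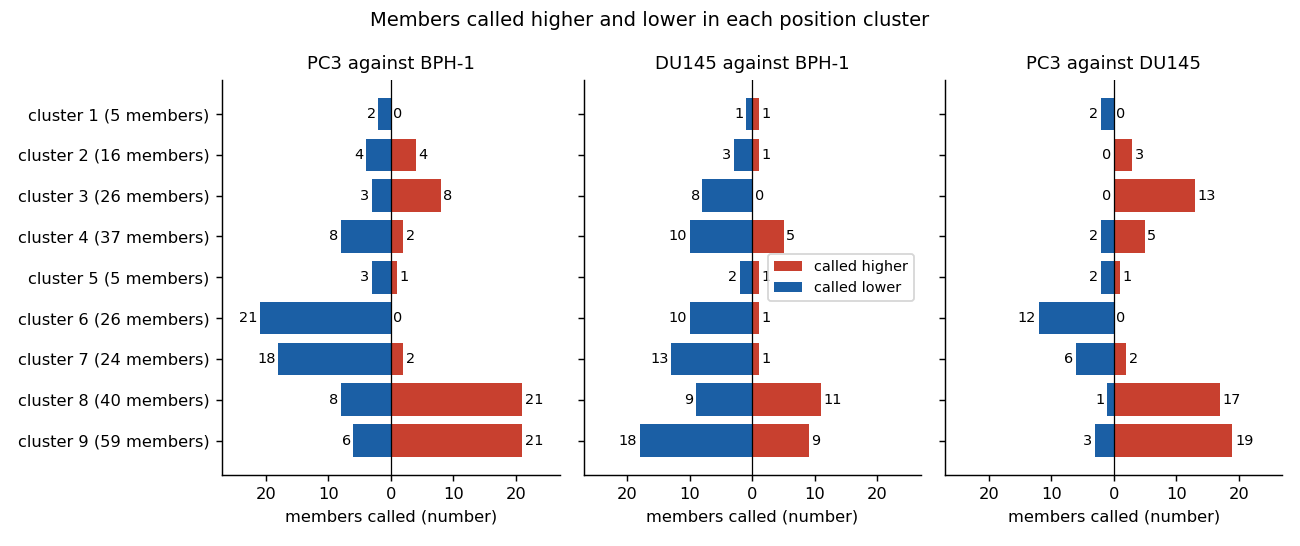
Number of members called higher (red, right of 0) and lower (blue, left of 0) in each position cluster, for the 3 comparisons. Cluster 6 has bars to the left only in PC3 against BPH-1 and PC3 against DU145, and cluster 8 has its longer bars to the right in all 3.

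In all, 8 members were at 0.2 FPKM or more in every BPH-1 library and at the floor in every PC3 library, or 4 of cluster 6, 3 of cluster 7 and 1 of cluster 9, where 2.44% of protein-coding genes met this rule. No member met it for BPH-1 and DU145, against 1.44% of protein-coding genes. For DU145 over BPH-1 there were 8 (background 0.838%), for DU145 over PC3 there were 7 (1.89%), and for PC3 over DU145 there were 4 (0.949%). For PC3 over BPH-1 there were 12 (0.57%), of which 7 lay in cluster 8 and 3 in cluster 3. These 12 are 4.82% of the 249 members, and the 8 of BPH-1 over PC3 are 3.21%.

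**Figure D5:**
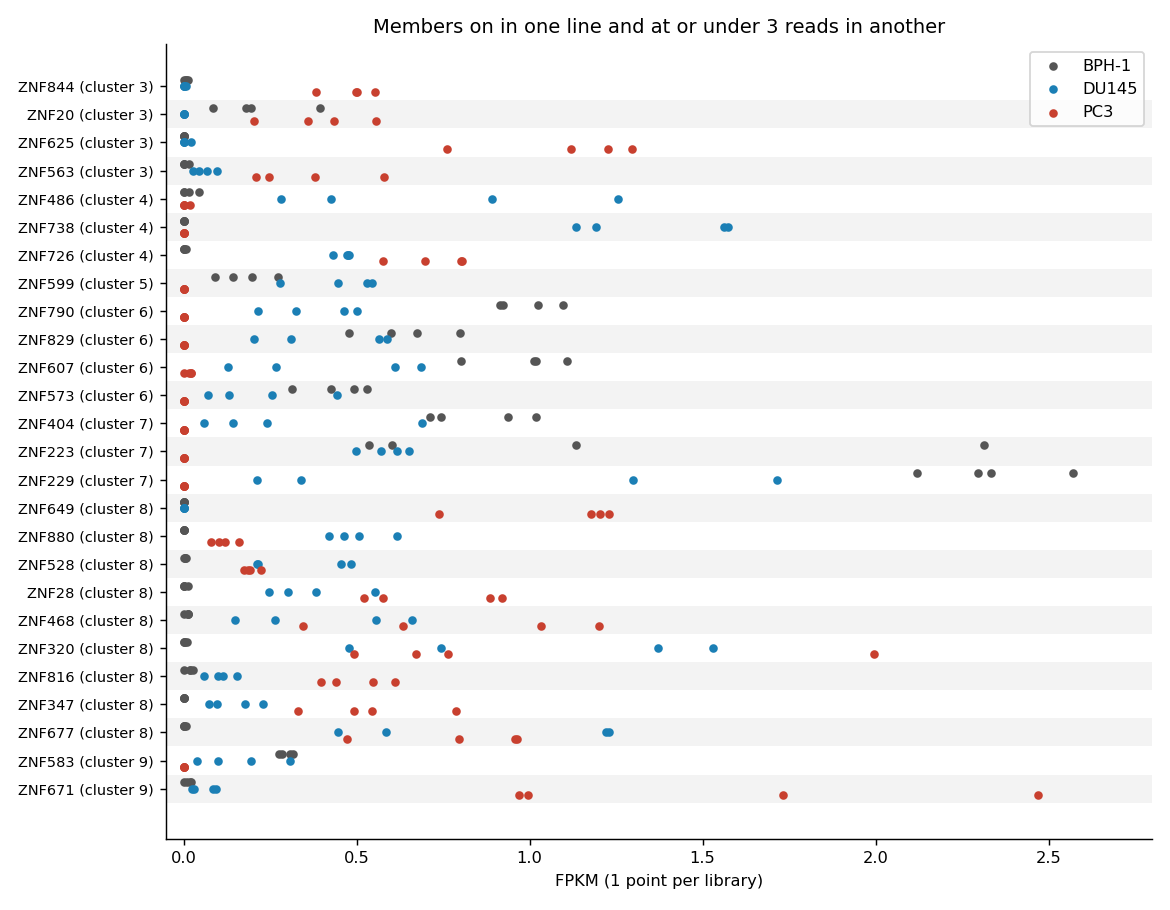
FPKM of the 26 members at 0.2 FPKM or more in every library of one line and at or under 3 reads in every library of another, 1 point per library, in position order. Members of clusters 6 and 7 lie at or near 0 in PC3, and those of cluster 8 lie at or near 0 in BPH-1.

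The partners of KRAB repression were taken as a list. Of 21 partner genes, all tested by limma, 5 were higher and 9 lower in PC3 against BPH-1, 3 and 9 in DU145 against BPH-1, and 4 and 3 in PC3 against DU145. In either direction 67.6%, 62.7% and 48.3% of all genes tested were called in these comparisons, so the partners' shares called against BPH-1 were near the background and are no result about the partners. TRIM28, the co-repressor, was at 42 to 69.3 FPKM in PC3, above BPH-1 at 27.3 to 34.5 and DU145 at 19.9 to 34 (log2 fold change 0.653 against BPH-1, adjusted p = 0.00565). SETDB1, the methyltransferase, was at 6.7 to 9.03 FPKM in DU145 and 2.98 to 3.94 in both other lines. ATRX, a chromatin remodeller of silenced repeats, was at 2.91 to 4.72 in BPH-1, 0.0326 to 0.225 in DU145 and 0.0639 to 0.625 in PC3. FAM208A, a subunit of the HUSH silencing complex, was at 4.71 to 6.55 in BPH-1, 0.278 to 1.43 in DU145 and 0.492 to 2.93 in PC3. Other partners on the list differed among themselves. MPHOSPH8 was called lower than BPH-1 in both PCa lines, MORC2 in PC3 alone and PPHLN1 in neither. Within DU145 and within PC3, ATRX and FAM208A ranked the libraries in the same order as GC balance did. The part of GC content in their differences between lines was not tested. Of 18 further zinc finger genes of the chromosome without a ZNF name, 4 were higher and 4 lower of 9 tested in PC3 against BPH-1, 4 and 3 of 11 in DU145 against BPH-1, and 2 and 5 of 10 in PC3 against DU145.

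The promoter windows of the 217 matched members differed from those of all genes and by cluster. The letters CCAAT, on either strand, stood in 52.1% of members against 32% of all promoters of the same length. They stood in 100% of the 29 matched members of cluster 4 and 92% of the 25 of cluster 3, but in 16.7% of the 24 of cluster 6. TTCCGG, on either strand, stood in 39.2% against 14.5%, with 69% in cluster 4 and 57.4% in cluster 9. TGCGCA, its own reverse complement, stood in 15.7% against 6.89%, with 41.7% in cluster 6. The median number of CG dinucleotides was 17.5 in cluster 6, 19 in cluster 8 and 8 in cluster 4. Members that were at the floor in PC3 and on in another line had a median of 15 (9 matched of 11), and those on in PC3 and at the floor in another had 14 (11 of 13). Promoters of duplicated genes are not independent of each other, and the matches describe sequence alone.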

How the data were processed

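RNA-sequencing libraries of BPH-1, DU145 and PC3 (4 each) were taken from 1 table deposited by the authors, whose values are FPKM per gene. Per the labels, total RNA was extracted with TRIzol and chloroform and libraries were made with the NEB Ultra RNA kit, and the submitters' processing notes name CASAVA 1.8, HISAT2 2.1.0, edgeR and GRCh38. The counting step, its use of strand and its treatment of reads shared by related genes are not given in the sources used here, and 22 members have over 20% of their exon bases in another protein-coding gene. The unit was read from the values with the exon lengths of GENCODE: of low values in protein-coding genes (under 30 reads), 92.1% to 93.6% per library were whole reads within 0.02, which gave depths of 12950664 to 16309560 reads. One read is therefore a large part of any value near the floor of 3 reads. All 18 pairs of libraries of a line differed beyond sampling noise, with a chi-square per gene of 17.3 to 215.

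Each comparison was fitted by limma 3.58.1 in R 4.3.3, with a trend, on log2(FPKM + 1) over the 8 libraries of the lines compared, without covariates. The pseudocount makes the change of weakly expressed genes look smaller than it is. Genes entered with 10 or more reads in 4 libraries, counted at the median depth, and 15 reads in all, and p-values were adjusted by Benjamini-Hochberg over all genes tested, with calls below 0.05. Voom on the recovered reads, other filters, pseudocounts and scalings, a correction that removed each library's trend with GC content (natural spline, df 5, fitted to genes of 50 reads or more), a replicate block and leaving out each library were run as alternatives. Counts per cluster under each of them, the fits without DU145 replicates 1 and 3 and the fit of PC3 replicates 1 and 2 against DU145 replicates 2 and 4 were added after seeing the data. On simulated data with 100 genes changed by 2-fold and 100 by 4-fold, 51%, 62% and 52% of the former and 100% of the latter were recovered for PC3 and DU145 each set against BPH-1 and for PC3 against DU145, over 16467, 17034 and 16506 genes. The changed genes had a mean of 50 reads or more, and these data held no shift in GC content between libraries. The rates therefore do not carry over to members near the floor or to libraries that differ in GC balance.

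Named members were the 6 that rose most and the 6 that fell most among calls without overlap in each comparison, the highest member of each cluster, 12 members with a known role, and those at 0.2 FPKM or more in every library of a line and at the floor in every library of another. Exceptions are marked in the text. The members, lists and rules were chosen with earlier results of these data known. Tables and figures were made with Python 3.11.15, pandas 2.3.3, numpy 2.4.6 and matplotlib 3.10.9.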

Additional observations from a re-analysis of the deposited data

Results flagged for a closer look

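In 16 of 183 groups of 4 libraries examined among the named members, 1 library lay far from the other 3 (Dixon's ratio above its 95% critical value). For normally distributed values about 5% of groups would be flagged. That rate does not apply near the floor, since any read in 1 library beside 3 at 0 always gives a flag. In 9 of the 16 the library held fewer than 11 reads. These were ZNF844 in DU145 replicate 1 at 0.00668 FPKM, ZNF625 in DU145 replicate 4 at 0.0216, ZNF563 in BPH-1 replicate 3 at 0.0146, ZNF93 in BPH-1 replicate 2 at 0.00837, ZNF486 in PC3 replicate 1 at 0.0178, ZNF726 in BPH-1 replicate 3 at 0.00746, ZNF28 in BPH-1 replicate 4 at 0.0143 and ZNF677 in BPH-1 replicate 3 at 0.00847, each with the other libraries at 0, and ZNF468 in BPH-1 replicate 2, which was at 0 beside 0.0128 to 0.0129.

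The other 7 stood on more reads. High libraries were ZNF714 in PC3 replicate 2 at 0.361 FPKM, ZNF296 in PC3 replicate 4 at 3.88 and ZNF71 in PC3 replicate 4 at 8.13. Low libraries were ZNF726 in DU145 replicate 4 at 0.431, ZNF649 in PC3 replicate 4 at 0.738, ZNF611 in BPH-1 replicate 1 at 0.197 and ZNF274 in BPH-1 replicate 1 at 1.33.

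ZNF599 and ZNF8 were called in opposite directions against BPH-1 in the PCa lines, and the difference between PC3 and DU145 was itself called by limma. ZNF599 was lower in PC3 and higher in DU145, with a log2 fold change of -0.53 between them (adjusted p = 0.000134). ZNF8 was higher in PC3 and lower in DU145, with 1.20 between them (adjusted p = 0.000282), and its lower call in DU145 was lost without any 1 BPH-1 library and without DU145 replicates 1, 2 or 3 in turn.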

How the results depend on the processing

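Of 120 called values of named members, 91 kept the call in every alternative that tested them. Members past an absolute log2 fold change of 1 numbered 11 higher and 20 lower in PC3 against BPH-1, 1 and 17 in DU145 against BPH-1, and 9 and 1 in PC3 against DU145. With at least 10 reads in every library, 32 were higher and 47 lower in the first, 12 were higher and 54 lower in the second, and 37 were higher and 7 lower in the third, of fewer members tested. The median log2 fold change in PC3 against BPH-1 turned to 0.00042 without a filter and was -0.226 on log2(FPKM + 0.1), -0.209 with every library rescaled to the same sum, -0.0284 with upper-quartile scaling and -0.240 by voom. In DU145 against BPH-1 it was -0.0694 without a filter, -0.541 on log2(FPKM + 0.1), -0.298 with the same sum, -0.717 by voom, -0.144 after the correction for GC content and -0.0606 without DU145 replicates 1 and 3. In PC3 against DU145 it was 0.0592, 0.366 and 0.471 without a filter, on log2(FPKM + 0.1) and by voom, and 0.0169 without DU145 replicates 1 and 3, with 36 members higher and 58 lower; PC3 replicates 1 and 2 against DU145 replicates 2 and 4 gave 47 lower. Rescaling to the same sum moved the median of all genes from -0.126 to -0.282 in PC3 against BPH-1 and to -0.164 in DU145 against BPH-1. The cause was not tested.

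After the correction for GC content, among values called before or after it, the log2 fold change turned sign in DU145 against BPH-1 for ZNF404 (0.0247), ZNF480 (0.0130), ZNF653 (-0.285), ZNF71 (-0.0659) and ZNF829 (0.280), and in PC3 against BPH-1 for ZNF91 (0.0690). Leaving out 1 library gave 56 to 62 higher and 70 to 77 lower members in PC3 against BPH-1 (median -0.0856 to -0.0664), 25 to 35 and 65 to 86 in DU145 against BPH-1 (-0.249 to -0.135), and 45 to 64 and 21 to 39 in PC3 against DU145 (0.0671 to 0.203), and 173 to 174, 187 to 197 and 179 to 188 members detected in BPH-1, DU145 and PC3. Libraries of different lines with the same replicate number correlated at -0.655 to 0.515 in their deviations from the line means. Those with other numbers correlated at -0.661 to 0.701. Differences in GC balance between libraries could hide a batch shared by number, so this check cannot decide whether the numbers pair the libraries. With the replicate block 58 members were higher and 73 lower in PC3 against BPH-1, 29 and 73 in DU145 against BPH-1, and 51 and 22 in PC3 against DU145. For members at or near the floor, small differences were not detectable at this depth.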
